A study of Homo sapiens with 9 samples.

Results

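The BCL2 family sets the threshold for apoptosis at the outer mitochondrial membrane. The 10 family genes described here were taken from the table of normalized counts by their gene symbols, from 62710 genes in all: the anti-apoptotic BCL2, MCL1 and BCL2L1 (BCL-xL), the effectors BAX and BAK1, and the BH3-only genes BCL2L11 (BIM), BID, BMF, BBC3 (PUMA) and PMAIP1 (NOXA). All 10 were expressed well enough to be tested. The rule that picks them uses their symbols and no measured value, although earlier results of these data were known when the family was chosen.

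The RNA came from A375R, a human melanoma line resistant to PLX4032, a BRAF inhibitor that the methods give as part of its culture medium at 2 µM. Cells of this single line received DMSO, 10 µM VHL-r or 10 µM R4VPL3-1, and were profiled at 2 h with 3 biological replicates each. R4VPL3-1 is a bifunctional molecule in which a part that binds the ubiquitin ligase RNF4 is joined to one that binds the ligase VHL, and VHL-r is the VHL-binding part on its own. The control libraries are titled as wild type without a dose, and the libraries of the full molecule by its linker, and they are called DMSO and R4VPL3-1 here after the design text.

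Anti-apoptotic family proteins hold the effectors BAX and BAK1 inactive. BH3-only proteins bind the anti-apoptotic proteins and so free the effectors, and some of them can also activate BAX and BAK1 directly. Once active, the effectors open the outer membrane and release cytochrome c, which drives caspase activation through APAF1. Several BH3-only genes are switched on by stress, and MCL1 and PMAIP1 have short-lived products, so that their transcript level is one of the points at which they are regulated. In melanoma, BIM and its regulation by the ERK pathway are well known in the response to BRAF inhibitors.

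The 9 libraries held between 26435568 and 32085626 reads, with a median of 28165279. As a check of the label, SOX10, a transcription factor of the melanocyte lineage, lay between 7900 and 17935 normalized counts and AXL, a marker of dedifferentiated melanoma, between 9240 and 12114. MITF lay between 893 and 1994, the pigment gene DCT between 914 and 1782, and S100B between 584 and 772. The other pigment genes were low or absent, with MLANA at 0 in all libraries, TYR at no more than 2.14, TYRP1 between 1.07 and 33.6 and PMEL between 20.9 and 36.8. The 8 melanocyte markers summed to between 20733 and 22517 normalized counts with DMSO, 11788 and 14670 with VHL-r, and 10359 and 12525 with R4VPL3-1, mostly SOX10, and the part of this shift in the family values was not tested. The 3 leukocyte markers summed to at most 26.9 and the 3 endothelial markers to at most 32.6 in any library. The 3 epithelial markers summed to between 250 and 391, mostly KRT14. In bulk RNA a smaller number of cells and less RNA per cell cannot be told apart.

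The upstream sequences of PMAIP1 and BCL2L11 are shown because these genes changed most. They are the 250 bases before the RefSeq transcript start on GRCh38.p14, both on the plus strand, 5′ to 3′. PMAIP1 lies at chr18:59899746-59899995, directly before the gene (18, 59899996 to 59904305, 3 exons), and the capitals mark CGTCA, the ATF/CREB half-site TGACG read on the other strand. BCL2L11 lies at chr2:111120664-111120913 (gene 2, 111119378 to 111168445), a stretch that is inside the gene as annotated in the count table. The capitals mark a FOXO motif, GTAAACA.
PMAIP1: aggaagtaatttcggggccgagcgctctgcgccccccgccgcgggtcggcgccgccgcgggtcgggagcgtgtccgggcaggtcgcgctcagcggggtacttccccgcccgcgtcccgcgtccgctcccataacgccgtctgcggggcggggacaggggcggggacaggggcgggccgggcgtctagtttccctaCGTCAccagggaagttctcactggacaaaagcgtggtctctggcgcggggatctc
BCL2L11: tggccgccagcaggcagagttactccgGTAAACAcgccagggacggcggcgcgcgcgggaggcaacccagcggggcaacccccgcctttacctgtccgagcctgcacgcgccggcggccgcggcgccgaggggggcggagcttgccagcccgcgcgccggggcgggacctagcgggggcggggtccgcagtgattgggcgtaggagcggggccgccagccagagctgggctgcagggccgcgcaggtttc

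Both windows were rich in G and C, at 72.8% for PMAIP1 and 76.8% for BCL2L11. The ATF/CREB half-site of PMAIP1 lay 55 bases before the start. In all, 5 members had this motif in a window, the others being BCL2, BCL2L1, BAX and BMF, and 21.2% of 35116 promoter windows held it. BCL2L11 and BBC3 lacked it. GTAAACA lay 223 bases before the start of BCL2L11, the only family gene that had it among the 9 with a RefSeq window, against 2.98% of all windows. BBC3 had the AP-1 motif TGANTCA at 113 bases and the E-box CACGTG at 232 bases before its start, against 6.57% and 6.34% of all windows. These distances are from the RefSeq start of BBC3, which lies inside the gene as the count table annotates it, where longer transcripts start farther upstream. BAX held the E-box in 4 places and BID in 2 of its 5 windows. The GC box GGGCGG was in windows of 6 members and in 42.6% of all windows, and PMAIP1 had it in 4 places and BCL2L11 in 3. The C/EBP-ATF element TGATGNAA was in no member's window and in 3.14% of all, and a p53 half-site was in the window of BAK1 and in 5.57% of all. Both strands were searched in 250 bases per window, several members had more than 1 window (15 in all), and the half-site can be part of a longer CRE. A match is a description of letters and not of a bound site.

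To see which family transcripts moved, each pair of treatments was compared by limma over 15230 genes. Against DMSO, 5 of the 10 family genes changed with VHL-r and 6 with R4VPL3-1, at an adjusted p of at most 0.05. Of all tested genes, 19.8% changed with VHL-r (10.3% higher and 9.51% lower) and 24.9% with R4VPL3-1 (13.1% higher and 11.8% lower). MCL1, BCL2L11, BBC3 and PMAIP1 rose and BCL2L1 fell with each compound, and BMF passed the threshold as a fall with R4VPL3-1. Between the compounds 1 of the 10 changed, PMAIP1, where 1.87% of all tested genes did (1.14% higher and 0.729% lower). The libraries of the 2 groups did not overlap for 5 members with VHL-r against DMSO, 6 with R4VPL3-1 against DMSO and 1 between the compounds. Of all tested genes, 34.3%, 38% and 14.1% did not overlap in these comparisons. The absolute log2 fold changes of these 10 genes had a median of 0.34 with VHL-r and 0.34 with R4VPL3-1 against DMSO, where that of all tested genes was 0.12 and 0.14. Between the compounds it was 0.07 for the family and 0.07 for all genes. The comparisons with DMSO share the same 3 control libraries and so are not independent of each other.

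**Figure D1:**
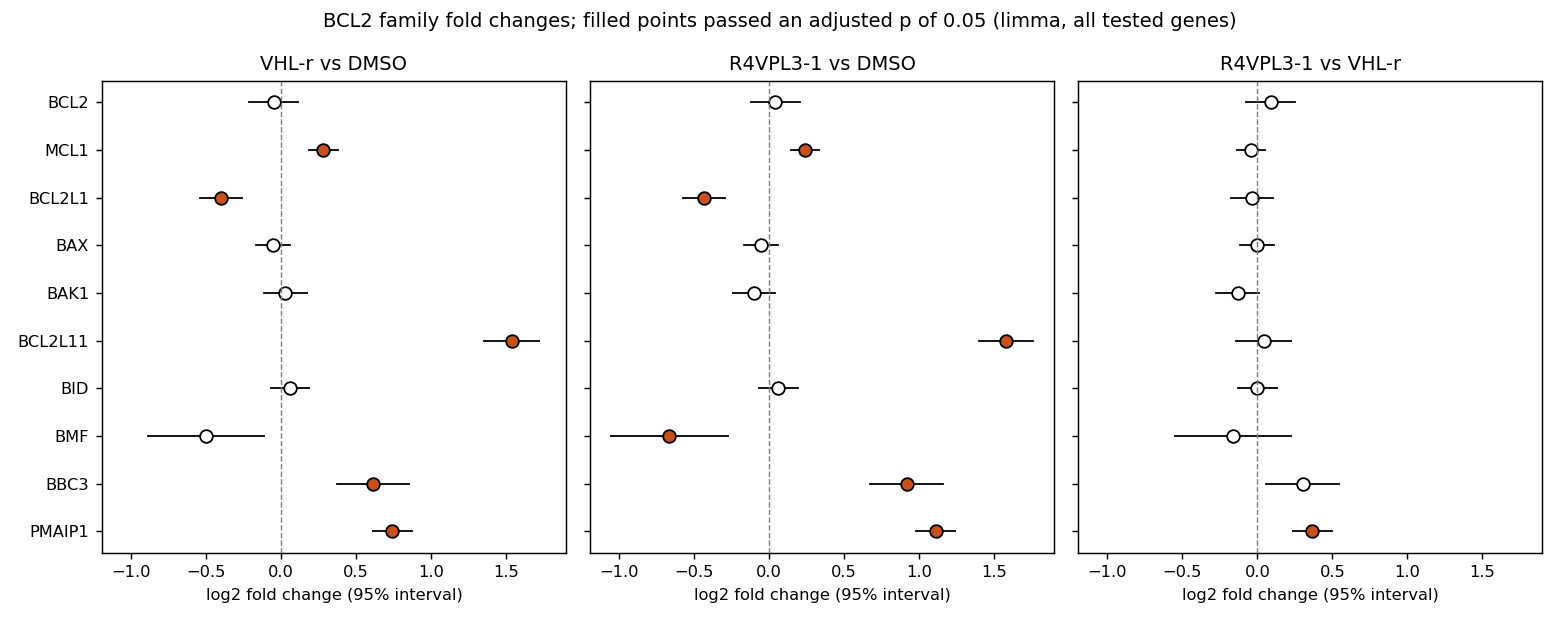
Log2 fold change of each family gene (x axis, on log2(normalized count + 1)) with its 95% interval, in the 3 comparisons; filled points passed an adjusted p of 0.05 in limma over all tested genes. BCL2L11 lies farthest to the right against DMSO, at 1.54 and 1.58, and PMAIP1 is the filled point between the compounds, at 0.37.

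PMAIP1 encodes NOXA, a BH3-only protein that binds MCL1 and favours its degradation. PMAIP1 had 698, 713 and 665 normalized counts with DMSO, 1184, 1177 and 1116 with VHL-r, and 1533, 1377 and 1582 with R4VPL3-1. The treatments formed separate groups, lowest with DMSO and highest with R4VPL3-1. The rise over DMSO was 1.67-fold with VHL-r (log2 0.74, SE 0.0626, adjusted p = 2.34e-08 in limma) and 2.16-fold with R4VPL3-1 (log2 1.11, adjusted p = 2.72e-11). R4VPL3-1 was 1.29-fold above VHL-r, with a 95% interval of 1.18 to 1.41 (log2 0.37, adjusted p = 0.00127 in limma). It was the family gene for which the full molecule and its VHL-binding part differed past the threshold.

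BCL2L11 encodes BIM, which binds all anti-apoptotic family proteins and can activate BAX. It had 275, 283 and 291 normalized counts with DMSO, 821, 726 and 937 with VHL-r, and 866, 773 and 910 with R4VPL3-1. Every treated library was above every DMSO library, and the ranges of the compounds overlapped. The rise was 2.9-fold with VHL-r (95% interval 2.56 to 3.29, adjusted p = 7.04e-11) and 2.99-fold with R4VPL3-1 (2.63 to 3.39, adjusted p = 1.85e-11). Between the compounds the log2 difference was 0.04, with an interval of -0.14 to 0.22 (adjusted p = 0.95). This was the largest change of a family gene against DMSO with either compound, and the interval between compounds leaves room for a difference of up to 1.17-fold.

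BBC3 encodes PUMA, a BH3-only protein known as a p53 target that also responds to p53-independent stress. Its normalized counts were 241, 242 and 321 with DMSO, 367, 416 and 440 with VHL-r, and 576, 502 and 437 with R4VPL3-1. Both treated groups lay above DMSO. R4VPL3-1 replicate 3 fell among the VHL-r libraries, and the other 2 R4VPL3-1 libraries lay above them. BBC3 rose 1.53-fold with VHL-r (adjusted p = 0.000556) and 1.89-fold with R4VPL3-1 (adjusted p = 4.14e-06). The compounds differed by 0.30 on the log2 scale (interval 0.06 to 0.54), which did not pass adjustment over all genes (adjusted p = 0.308 in limma).

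BMF, a BH3-only gene linked to loss of attachment and to the cytoskeleton, was the least abundant family gene by reads, with between 73 and 158 in a library. It had 93.5, 155 and 147 normalized counts with DMSO, 78.1, 84 and 114 with VHL-r, and 85, 72.6 and 85.7 with R4VPL3-1. DMSO replicate 1 was well below the other 2 DMSO libraries and lay among the VHL-r libraries. With R4VPL3-1 the log2 fold change was -0.67 (interval -1.05 to -0.28, adjusted p = 0.0112), and with VHL-r it was -0.50 (interval -0.89 to -0.11, adjusted p = 0.0643). The call for R4VPL3-1 was lost when DMSO replicate 2, DMSO replicate 3 or R4VPL3-1 replicate 2 was left out (adjusted p up to 0.0801). VHL-r gained a call without DMSO replicate 1 or VHL-r replicate 3 (adjusted p down to 0.00606).

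BID, which caspase-8 cleaves to link death receptors to mitochondria, was between 896 and 1043 normalized counts in all 9 libraries. Its log2 fold change was 0.06 against DMSO with either compound (interval -0.07 to 0.19 for each), and no comparison passed the threshold. Among the 5 BH3-only genes, then, 3 rose with each compound, where 10.3% of all tested genes rose with VHL-r and 13.1% with R4VPL3-1. BID passed no test. BMF passed as a fall with R4VPL3-1, where 11.8% of all tested genes fell, and its call was lost under 3 of 20 alternatives.

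**Figure D2:**
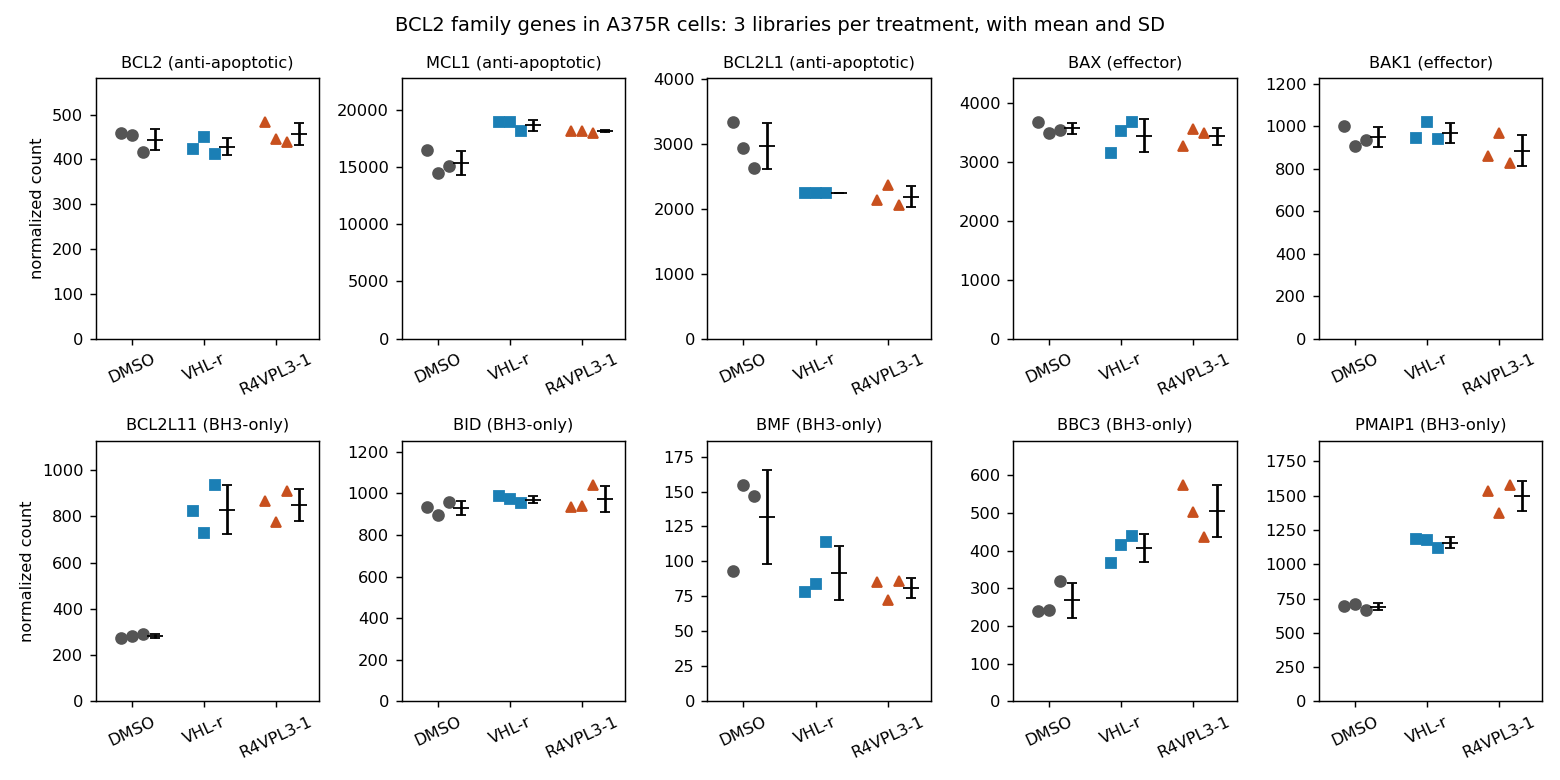
Normalized counts of the 10 family genes (y axis from 0) in each of the 3 libraries per treatment, with the mean and SD beside the points. PMAIP1 forms 3 separate groups, BCL2L11 is about level between the compounds at 726 to 937 counts against 275 to 291 with DMSO, and BMF has a DMSO library at 93.5 among the treated ones.

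The 3 anti-apoptotic genes did not move together. MCL1, which keeps BAK1 and BIM in check, had 16509, 14487 and 15056 normalized counts with DMSO, 18938, 18924 and 18094 with VHL-r, and 18151, 18176 and 18000 with R4VPL3-1. All treated libraries lay above all DMSO libraries. The rise was 21.7% with VHL-r (log2 0.28, SE 0.0454, adjusted p = 0.000101) and 18.1% with R4VPL3-1 (log2 0.24, adjusted p = 0.000417). Between the compounds the difference was -2.89%, with an interval of -9.06% to 3.7%. Of the exon length of MCL1 (1, 150560895 to 150579738, minus strand), 5.27% is shared with ADAMTSL4-AS1, annotated on the same strand, and reads that lie in both can be left unassigned by htseq-count.

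BCL2L1, whose main product BCL-xL binds BAX, BAK1 and BIM, had 3344, 2944 and 2632 normalized counts with DMSO. It had 2243, 2243 and 2248 with VHL-r and 2144, 2366 and 2067 with R4VPL3-1. The treated groups overlapped each other and lay below DMSO, whose libraries were spread more widely (SD 357, n = 3) than those of VHL-r (SD 3.17) or R4VPL3-1 (SD 155). It fell by 24.1% with VHL-r (log2 -0.40, SE 0.0678, adjusted p = 0.000188) and by 26% with R4VPL3-1 (log2 -0.44, adjusted p = 5.4e-05). Between the compounds the log2 difference was -0.04 (interval -0.18 to 0.11). Counts per gene do not separate BCL-xL from the short, pro-apoptotic splice form of the same gene.

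BCL2, the founding member, was low and overlapped in all comparisons. Its normalized counts ranged from 417 to 459 with DMSO, from 412 to 449 with VHL-r and from 439 to 484 with R4VPL3-1. The log2 fold change against DMSO was -0.05 with VHL-r (interval -0.21 to 0.11) and 0.04 with R4VPL3-1 (interval -0.12 to 0.20).

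Neither effector passed a test. BAX, which moves from the cytosol to mitochondria when active, had between 3497 and 3676 normalized counts with DMSO, 3146 and 3683 with VHL-r, and 3275 and 3556 with R4VPL3-1. BAK1, which resides in the outer membrane, had 948 ± 47.6, 967 ± 45.6 and 884 ± 72.6 in the same order (SD, n = 3), with overlapping libraries. For BAX the log2 fold change was -0.05 with VHL-r (interval -0.17 to 0.06) and -0.06 with R4VPL3-1 (interval -0.17 to 0.06). Between the compounds BAK1 differed by -8.71%, lower with R4VPL3-1, with an interval of -17.3% to 0.745% (adjusted p = 0.572 in limma). Of the 100-base windows of BAK1 transcripts, 3.71% occur in other genes too, and reads that align in several places are not counted by htseq-count in its usual setting.

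Placed side by side at the same dose and time, the full molecule and its VHL-binding part gave close values for most family genes. The comparison covered 10 pairs of values, adjusted with all 15230 genes. The intervals between the compounds lay within 0.28 of 0 on the log2 scale for 7 of the genes, namely BCL2, MCL1, BCL2L1, BCL2L11, BAX, BAK1 and BID. BMF had a wider interval, of -0.55 to 0.22, and BBC3 and PMAIP1 had intervals above 0. A p that misses the threshold does not show that the compounds act alike on these genes.

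Levels of different genes were compared as normalized counts per kb of annotated exon. With DMSO, MCL1 had the highest level, 2467 ± 168 per kb (SD, n = 3), followed by BAX at 1382 ± 35.5, BCL2L1 at 708 ± 85 and BAK1 at 429 ± 21.5. PMAIP1 came next at 317 ± 11.3 per kb, then BID at 210 ± 7.29 and BBC3 at 84.2 ± 14.5. The lowest were BCL2L11 at 42 ± 1.18 per kb, BCL2 at 35.1 ± 1.83 and BMF at 24.2 ± 6.17. The ranges of neighbours in this order did not overlap with DMSO.

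With VHL-r, PMAIP1 reached 530 ± 16.9 per kb and its libraries overlapped with those of BCL2L1 at 535 ± 0.756. With R4VPL3-1, PMAIP1 was at 685 ± 49.1 per kb, above all libraries of BCL2L1 (522 ± 37), and so moved from rank 5 with DMSO to rank 4 with VHL-r and rank 3 with R4VPL3-1. BCL2L11 rose to 123 ± 15.7 and 126 ± 10.4 per kb, and in VHL-r its range overlapped that of BBC3 (128 ± 11.7). The length used is that of all annotated exons, which is longer than any single transcript of BCL2L11 or BCL2, so the order rests on the annotation.

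**Figure D3:**
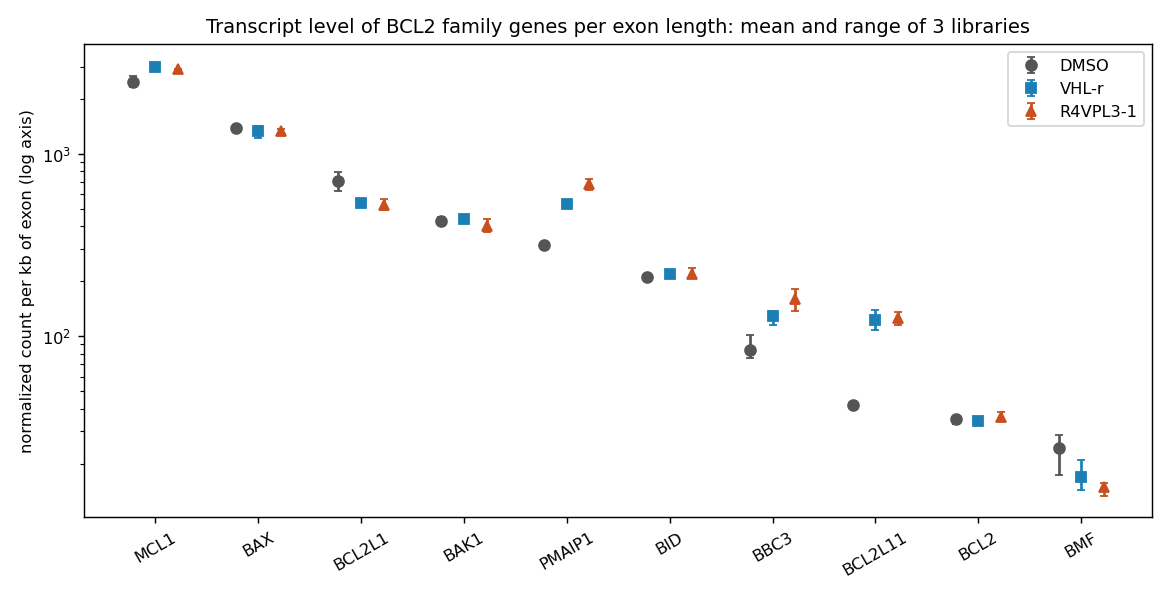
Normalized count per kb of exon (y axis, log scale) of the 10 family genes, ordered by their level with DMSO; symbols are means of 3 libraries and bars the lowest and highest library. PMAIP1 rises from 317 to 530 and 685 per kb, past BAK1 with VHL-r and past BCL2L1 with R4VPL3-1.

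By the same measure, MCL1 made up between 75.9% and 78.6% of the summed level of the 3 anti-apoptotic genes with DMSO, between 83.7% and 84.3% with VHL-r, and between 83% and 84.6% with R4VPL3-1. The share of BCL2L1 was between 20.4% and 22.9% with DMSO and at most 16% in any treated library. Among the 5 BH3-only genes, PMAIP1 held between 43.9% and 48.3% of the sum with DMSO, 49.8% and 53.3% with VHL-r, and 55.8% and 58% with R4VPL3-1. The share of BCL2L11 rose from between 6.14% and 6.23% to between 10.2% and 13.6% in treated cells. These shares add transcripts per length and say nothing of protein.

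The anti-apoptotic sum was 5.25, 4.54 and 4.45 times the BH3-only sum with DMSO, 3.55, 3.57 and 3.39 times with VHL-r, and 2.8, 3.12 and 2.74 times with R4VPL3-1. The 3 treatments did not overlap. The anti-apoptotic sum was 3487, 3066 and 3080 per kb with DMSO, between 3476 and 3612 with VHL-r, and between 3420 and 3520 with R4VPL3-1. DMSO replicate 1 lay among the treated libraries, and the other DMSO libraries lay below them. The BH3-only sum was between 664 and 693 with DMSO, 1011 and 1025 with VHL-r, and 1128 and 1248 with R4VPL3-1. Both sums and their ratio are made from the gene values given above.

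Within each library, PMAIP1 was also set against MCL1, the protein that NOXA binds. The log2 difference PMAIP1 minus MCL1 was -4.47 ± 0.11 with DMSO, -4.01 ± 0.0094 with VHL-r and -3.60 ± 0.11 with R4VPL3-1 (SD, n = 3). The groups did not overlap. R4VPL3-1 was 0.87 above DMSO and 0.41 above VHL-r, and VHL-r was 0.46 above DMSO (two-sided exact permutation p = 0.1 for each, the smallest that 3 against 3 libraries allow). BCL2L11 minus MCL1 was -5.75 ± 0.13 with DMSO, -4.50 ± 0.22 with VHL-r and -4.42 ± 0.13 with R4VPL3-1. It separated each compound from DMSO (exact permutation p = 0.1) but the compounds overlapped (difference 0.08, exact permutation p = 0.7). BAX minus BCL2 was 3.01 ± 0.07, 3.01 ± 0.14 and 2.91 ± 0.14 in the same order, with overlap in all comparisons (exact permutation p between 0.4 and 1). Adjusted over these 9 tests no p could pass 0.05. The differences are made from the gene counts given above and are not separate evidence of a change.

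**Figure D4:**
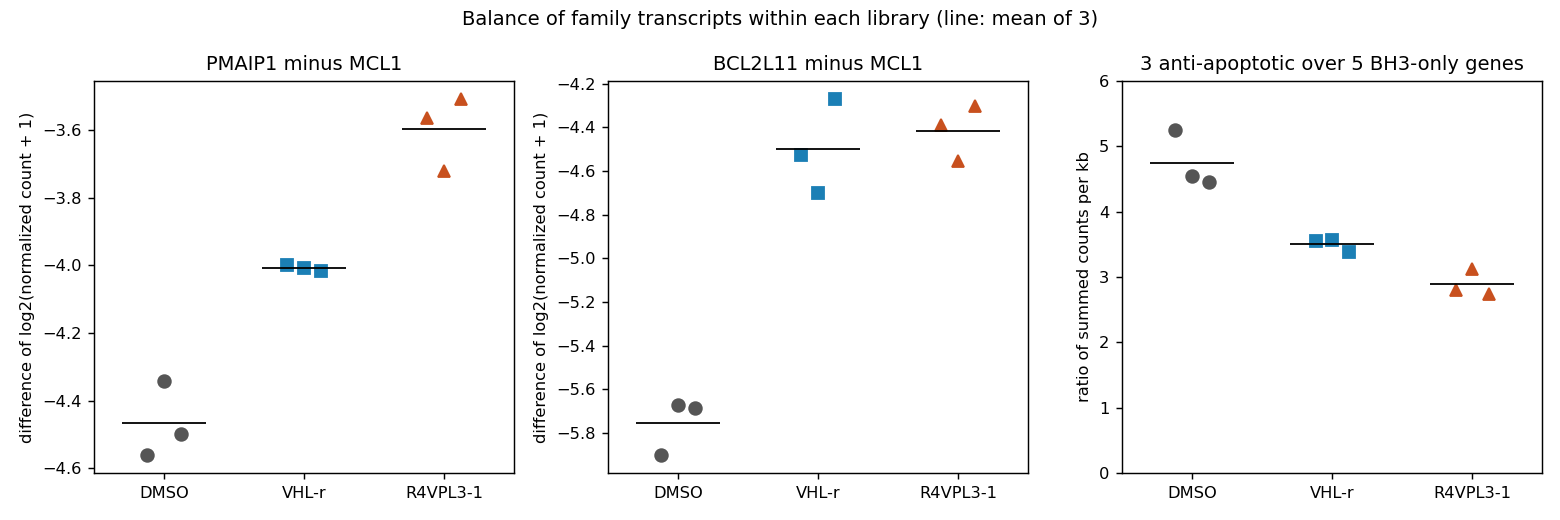
Differences of log2(normalized count + 1) within each library for PMAIP1 minus MCL1 and BCL2L11 minus MCL1 (y axes do not start at 0), and the ratio of the summed levels per kb of the 3 anti-apoptotic to the 5 BH3-only genes; points are libraries and lines means of 3. PMAIP1 minus MCL1 and the ratio show 3 separate groups, and BCL2L11 minus MCL1 separates DMSO from the compounds, which overlap.

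Beyond these 10 genes, 7 further BCL2 homologues and BH3-only genes were read from a list, of which 6 were tested and BCL2L10 was too low. None of the 6 passed the limma threshold between the compounds, where 1.87% of all tested genes did. BIK, a BH3-only gene of the endoplasmic reticulum, was at 9.99, 3.94 and 6.08 normalized counts with DMSO, 12, 17.9 and 14.3 with VHL-r, and 15.9, 24.9 and 17.1 with R4VPL3-1. It rose with R4VPL3-1 (log2 1.45, adjusted p = 0.00486) and with VHL-r (log2 1.10, adjusted p = 0.0366), at a level where single reads count, and the call for VHL-r was lost under 8 of 19 alternatives. BCL2A1, an anti-apoptotic homologue under MITF control in melanoma, had between 121 and 161 normalized counts with DMSO, 108 and 133 with VHL-r, and 75.6 and 97.4 with R4VPL3-1. It fell with R4VPL3-1 (log2 -0.67, adjusted p = 0.00209), and had a log2 fold change of -0.27 with VHL-r (adjusted p = 0.251). The R4VPL3-1 libraries lay below the VHL-r libraries without passing adjustment (log2 -0.41, adjusted p = 0.281). HRK fell with VHL-r.

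Of 7 atypical relatives, 6 were tested. BNIP3, a mitophagy receptor of the outer membrane and a target of HIF, was the one that changed between the compounds. Of all tested genes, 1.87% did. BNIP3 had 4139, 4014 and 3884 normalized counts with DMSO, 4412, 4230 and 4456 with VHL-r, and 7000, 6136 and 5930 with R4VPL3-1. R4VPL3-1 stood above both other groups, by 1.45-fold over VHL-r (adjusted p = 1.45e-06) and 1.58-fold over DMSO (adjusted p = 8.1e-09). Its relative BNIP3L and BCL2L12 rose too with R4VPL3-1 against DMSO, and BCL2L12 with VHL-r.

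Downstream of the family, 19 of 20 listed genes of the apoptosome, the caspases and the inhibitor of apoptosis proteins (IAPs) were tested, and none passed the limma threshold between the compounds. Of all tested genes, 1.87% passed it. Against DMSO, 3 fell with R4VPL3-1 and 4 with VHL-r, where 11.8% and 9.51% of all tested genes fell. APAF1, the scaffold of the apoptosome, rose by 40.2% with VHL-r (adjusted p = 2.17e-06) and by 36.4% with R4VPL3-1 (adjusted p = 4.42e-06). BIRC3, an IAP and NF-kB target, went from between 251 and 331 normalized counts with DMSO to between 141 and 183 with VHL-r and 138 and 156 with R4VPL3-1 (log2 -0.92 and -1.01, adjusted p = 1.83e-05 and 3.84e-06). BIRC2, its neighbour and paralog, changed by -20.4% with VHL-r and by -18.5% with R4VPL3-1, both past the threshold. The others that fell were CASP2 with each compound and HTRA2 with VHL-r.

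Of 8 outer membrane partners of the family, TOMM20, a receptor of the protein import machinery, was the one that changed. Of all tested genes, 19.8% changed with VHL-r and 24.9% with R4VPL3-1 against DMSO. TOMM20 changed by -8.19% with VHL-r and by -8.97% with R4VPL3-1 against DMSO (adjusted p = 0.0437 and 0.0216), and these calls were lost under 8 and 4 of 20 alternatives. Of 10 listed ligases and deubiquitinases that act on family proteins, 9 were tested. HUWE1, also known as MULE and a ligase for MCL1, rose 1.18-fold with VHL-r (adjusted p = 0.0169) and 1.34-fold with R4VPL3-1 (adjusted p = 8.23e-05), and the call for VHL-r was lost under 4 of 20 alternatives. FBXO7 changed by -10.5% and by -11.4% (adjusted p = 0.0403 and 0.0199), calls that were lost under 8 and 4 of 20 alternatives. None of these 17 genes passed the limma threshold between the compounds, where 1.87% of all tested genes did. HUWE1 passed it without VHL-r replicate 1 (log2 0.30).

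Among 17 transcription factors known to act on family genes, 4 were higher with R4VPL3-1 than with VHL-r and none lower, namely JUN, ATF3, DDIT3 and ATF4. Of all tested genes, 1.14% were higher and 0.729% lower in this comparison. JUN, a subunit of AP-1, had 2301, 1813 and 1853 normalized counts with DMSO, 1195, 1064 and 1229 with VHL-r, and 23741, 19158 and 12252 with R4VPL3-1. It thus moved in opposite directions against DMSO, by -0.77 with VHL-r and 3.16 with R4VPL3-1 on the log2 scale (adjusted p = 0.000513 and 9.51e-13), and the fall with VHL-r did not pass under the robust option. ATF3, a stress-induced factor, was 3.45-fold above VHL-r with R4VPL3-1 (adjusted p = 3.86e-07) and at log2 0.11 in VHL-r against DMSO (adjusted p = 0.723).

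DDIT3 (CHOP), a factor of the unfolded protein response, had between 249 and 290 normalized counts with DMSO, 366 and 403 with VHL-r, and 959 and 1492 with R4VPL3-1. Its rise was 1.4-fold with VHL-r (adjusted p = 0.00392) and 4.45-fold with R4VPL3-1 (adjusted p = 9.8e-12). A further pair of factors from the list was picked out after their values were seen. ATF4, the main factor of the integrated stress response, rose 1.19-fold with VHL-r and 1.57-fold with R4VPL3-1 against DMSO (adjusted p = 0.00018 and 2.27e-10). FOXO3, known to act on BCL2L11 and BBC3, rose 1.3-fold with VHL-r and 1.26-fold with R4VPL3-1 (adjusted p = 0.00138 and 0.00327), and the compounds overlapped. MITF, HIF1A, MYC, NFKB1 and SP1 fell with each compound, and FOXO1 fell with R4VPL3-1. The part of these factors in the family values was not tested.

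The ligases that the compounds bind were not changed as transcripts by the limma threshold. RNF4 had between 372 and 466 normalized counts in all libraries, and VHL between 1532 and 1823. Their log2 fold changes were within 0.09 of 0 in every comparison, and transcript levels do not show the amount of either protein.

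The genes whose log2 values over the 9 libraries were most like those of PMAIP1 were IDI1 (Pearson r = 0.991), NEU3 (0.989), KANSL2 (0.984), TXNIP (0.982) and ENSG00000260158 (0.982), which carries no symbol in the table. IDI1, an enzyme of isoprenoid synthesis, had means of 1379 normalized counts with DMSO, 1907 with VHL-r and 2292 with R4VPL3-1. TXNIP, which binds thioredoxin, had means of 1470, 4415 and 6613. NEU3 and KANSL2 followed the same order with smaller steps, of 744, 910 and 1041 and of 1074, 1339 and 1547. ENSG00000260158 was low, with means of 6, 23 and 37. The correlations rest on 3 treatments of 3 libraries. The means of all 5 genes rose in the order DMSO, VHL-r, R4VPL3-1, as those of PMAIP1 did. The genes were picked for this likeness, so the shared order is no separate result. Between the compounds IDI1 and TXNIP passed the limma threshold (adjusted p = 0.00535 and 6.7e-05). NEU3, KANSL2 and ENSG00000260158 did not (adjusted p = 0.114, 0.0681 and 0.431).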

How the data were processed

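Poly(A) RNA of A375R cells was sequenced as stranded single reads of 100 bases. According to the methods, the authors aligned reads to GRCh38 with STAR, counted them with htseq-count in reverse mode and normalized with DESeq2 1.36.0. The authors deposited a normalized signal, reads per gene divided by the size factor of each library (0.9341 to 1.1012), with 2 decimals. Whole reads were recovered for 100% of values within rounding and served as alternatives; in 2 libraries (R4VPL3-1 replicate 2 and VHL-r replicate 1) the size factor was so near 1 that low values are nearly whole as deposited, and their low values do not test the recovery. Here log2(value + 1) was fitted for 15230 genes, those whose mean reached 10, with limma 3.58.1 (R 4.3.3, trend option), with treatment as the single factor, all 9 libraries and Benjamini-Hochberg adjustment over all tested genes. Fold changes are on this scale and intervals are 95%. The fit was tested on simulated data. Single differences were tested by exact permutation (SciPy 1.17.1). Exons came from GENCODE 44 and promoters from RefSeq; gene coordinates are those of the table.

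The family genes and the lists were chosen with earlier results of these data known. All 10 family genes are named, and values are given for at most 3 genes per list, those with the largest change among called genes (first between the compounds, then R4VPL3-1 against DMSO, then VHL-r against DMSO), for ATF4 and FOXO3, picked after their values were seen, and for RNF4, VHL and the 5 genes most like each family gene called between the compounds. Further called genes of the lists are named without values, after their calls were seen. The 20 alternatives were other pseudocounts, filters and scalings, edgeR (4.0.16) and DESeq2 (1.42.0) run on recovered reads, a block for the replicate number, limma's robust option, 6 libraries only, and each library left out. BCL2L14, DIABLO, TRIM17 and BCL2L10 were below the filter. MCL1 had no window in the RefSeq promoter set used, so it was not searched for motifs. The count of listed apoptosome, caspase and IAP genes that rose is not reported here.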

Additional observations from a re-analysis of the deposited data

How the results depend on the processing

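The calls of 9 of the 10 family genes were the same under all 20 alternatives, with BMF the exception as described above, and for PMAIP1 between the compounds the adjusted p ran from 1.61e-05 to 0.011. Genes called between the compounds numbered 285, and 182 to 357 with a library left out, lowest without R4VPL3-1 replicate 1, and PMAIP1 stayed among them. edgeR and DESeq2 on recovered reads called 297 and 311 genes there. Deviations from the group means correlated between -0.006 and 0.121 for the 9 library pairs with equal replicate numbers. They correlated between -0.148 and 0.098 for the 18 pairs with other numbers. For equal numbers only the lowest value, for DMSO and R4VPL3-1 replicate 1, was negative, and other numbers gave values of both signs. Whether the replicate numbers pair the libraries was not tested. With a replicate block 389 genes were called between the compounds instead of 285. Against DMSO, 4241 were called instead of 3792 with R4VPL3-1, and 3451 instead of 3016 with VHL-r. With the block 6 family genes changed with VHL-r instead of 5 (BMF added), and no other family call moved. Genes near 0 changed sign, none of them called. With a library left out, the log2 fold change between the compounds ran from -0.0924 to 0.0049 for BCL2L1, -0.0491 to 0.135 for BCL2L11, -0.0673 to 0.0463 for BAX, -0.051 to 0.0293 for BID, -0.1622 to 0.0234 for BIRC3, -0.0312 to 0.082 for BIRC2, -0.048 to 0.0081 for TOMM20, -0.0474 to 0.0322 for FBXO7, -0.052 to 0.0079 for VHL and -0.0801 to 0.0081 for FOXO3. With R4VPL3-1 against DMSO it ran from -0.0038 to 0.0664 for BCL2, -0.0596 to 0.1053 for RNF4 and -0.0469 to 0.0786 for VHL, and with VHL-r against DMSO from -0.1027 to 0.0109 for BAX, -0.0094 to 0.069 for BAK1, -0.0116 to 0.3423 for ATF3 and -0.0218 to 0.1037 for VHL. BAX between the compounds was 0.0033 with TMM factors, 0.0072 with the upper quartile and 0.0009 with edgeR, and RNF4 with R4VPL3-1 was -0.0022 with DESeq2. BCL2L11 minus MCL1 between the compounds ran from -0.0174 to 0.1991, and BAX minus BCL2 with VHL-r from -0.081 to 0.0542. With 3 libraries per treatment, effects inside the intervals given above were not resolved.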
